A study of Mus musculus with 6 samples.

Results

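Fibroblast growth factor (FGF) signalling through the kinase ERK was represented by 7 genes: the ligand gene Fgf4, the receptor gene Fgfr1, the inhibitor genes Spry2, Spry4 and Dusp6, and the ETS transcription factor genes Etv4 and Etv5. All of their transcripts that carried a value were taken, by gene symbol. This gave 39 of 68397 matched transcripts, of which 37 held distinct values, and 7 of 17349 genes. They were read in 6 mNET-seq libraries of mouse embryonic stem cells of strain C57BL/6, with 2 libraries in each of 3 groups: control, and the Mettl3 knockouts KO1 and KO2. Mettl3 encodes the methyltransferase that places N6-methyladenosine (m6A) on RNA, and the series compared transcription in its presence and absence. All 3 groups, controls included, grew in serum with leukaemia inhibitory factor, 3 µM CHIR99021 (an inhibitor of the kinase GSK3) and 1 µM PD0325901 (an inhibitor of MEK, the kinase that activates ERK), so the pathway was measured under a block at MEK. The labels do not state how the knockouts were made, whether each was 1 clone, or whether replicates came from separate cultures, and a p-value here reflects library spread alone, which may be technical.

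FGF4 is secreted by embryonic stem cells and acts back on them through FGF receptors, which pass the signal through Ras, MEK and ERK. In these cells the signal is known for moving them out of the naive state, and an inhibitor of MEK in the medium is used to hold them there. Sprouty proteins and the phosphatase DUSP6 damp the pathway, and their genes, like Etv4 and Etv5, are well-known transcriptional targets of it.

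In mNET-seq, short nascent RNA is recovered with immunoprecipitated RNA polymerase II and sequenced, which gives the position of polymerases along a gene. The deposited value is a log2 escaping index for each transcript, a ratio whose windows the labels do not define. Over 12754 coding genes with 1 full-length transcript each, the control index rose with genomic span (Pearson's r = 0.691 with log10 span and Spearman's rho = 0.683, across genes, which are not independent replicates), as in a ratio of signal along a transcript to signal at its beginning, and it is read in that direction here. The index does not measure how much polymerase or RNA a gene has, and a lower value cannot be told apart as more signal at the start or less downstream. In bulk libraries, a shift in all cells and a larger shift in some of them cannot be told apart either. Read depth is unknown, so no counting interval is given.

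The index was lower over most genes in both knockouts, and the 7 genes are read against this shift. The median change over all genes was -0.21 in KO1 and -0.34 in KO2, and 70.3% and 78.7% of genes were lower. Replicate libraries correlated across genes at 0.967 in control, 0.970 in KO1 and 0.971 in KO2. All 8 listed stem cell markers had an index, as did 4 of 7 fibroblast markers and 1 of 5 primitive endoderm markers, but a ratio within a gene is no level and does not check the cell type. The index of Mettl3 itself, 0.64 ± 0.076 (SD, n = 2) in control, was 0.69 ± 0.12 in KO1 and 0.36 ± 0.11 in KO2, which does not check the knockout for the same reason.

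The index is read here as signal downstream against signal near a start, which the labels do not state. Sequences just before start sites are therefore shown for the 4 of the 7 genes matched in the RefSeq promoter table (build GRCm38.p6). Each is the 100 bases upstream of the start, 5′ to 3′ on the strand of the gene, at chr7:144861286-144861385 (plus) for Fgf4, chr10:99263131-99263230 (plus) for Dusp6, chr14:105896820-105896919 (minus) for Spry2 and chr16:22439571-22439670 (minus) for Etv5. Capitals mark matches to the motifs described after the sequences.
Fgf4: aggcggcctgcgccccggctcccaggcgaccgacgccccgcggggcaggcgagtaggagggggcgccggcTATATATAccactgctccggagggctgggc
Dusp6: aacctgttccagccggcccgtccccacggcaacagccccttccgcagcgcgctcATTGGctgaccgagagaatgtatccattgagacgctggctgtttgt
Spry2: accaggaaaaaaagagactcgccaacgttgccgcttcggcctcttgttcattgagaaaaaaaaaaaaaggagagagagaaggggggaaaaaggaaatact
Etv5: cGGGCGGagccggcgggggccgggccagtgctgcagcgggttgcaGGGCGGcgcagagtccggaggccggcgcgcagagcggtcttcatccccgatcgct

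On either strand, 4 motifs were searched. For the TATA box the letters were TATANA, a form set after the sequences had been read. The CCAAT box was searched as such. For the GC box the letters were GGGCGG. For the core of ETS factor sites they were CCGGAA. No 2 different motifs overlapped in these windows. Fgf4 held TATANA, which 9.48% of 32851 promoters in the table hold in the same window. Dusp6 held CCAAT, in reverse as ATTGG, as do 18.9% of promoters. Etv5 held 2 GC boxes, a motif found in 24.7% of promoters, and Spry2 held none of the 4 motifs. The ETS core, present in 7.23% of promoters, was in none of the 4 windows. The windows also differed in base composition: GC content was 76% in Fgf4, 78% in Etv5, 61% in Dusp6 and 43% in Spry2, beside a median of 55% over the table. The starts shown for Fgf4, Dusp6 and Spry2 coincide with those of Fgf4-201, Dusp6-201 and Spry2-201. That for Etv5 coincides with Etv5-204, which begins 149 bases downstream of the start of the full-length model Etv5-201. The Etv5 window shown therefore lies inside Etv5-201 and not before its start. The table holds another Etv5 start, with no measured model. Its window (chr16:22438369-22438468, minus strand, GC content 67%) also lies inside Etv5-201 and held none of the 4 motifs.

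In control cells the full-length models ran from a high index to one below 0. The log2 index was 6.92 ± 0.38 in Etv5-201, 5.01 ± 0.10 in Fgfr1-201, 4.78 ± 0.060 in Etv4-201, 2.90 ± 0.0082 in Spry2-201, 2.47 ± 0.026 in Fgf4-201, 2.45 ± 0.34 in Spry4-201 and -0.51 ± 0.20 in Dusp6-204 (SD, n = 2 each). Fgf4 and Spry4 overlapped and have no order, while the control libraries of the other neighbours did not overlap. These models span 58411, 56960, 15625, 4873, 3858, 15169 and 4259 bases in that order, so levels are better read against coding genes of like span (0.8 to 1.25 times). Fgf4, Spry2 and Etv4 then lay near the middle, above 51.0%, 50.9% and 58.0% of such genes. Dusp6 lay above only 2.96% of 777 such genes, whose median was 2.58, and Spry4 above 10.6% of 1701, whose median was 4.46. Fgfr1 lay above 25.2% and Etv5 above 73.2%.

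**Figure D1:**
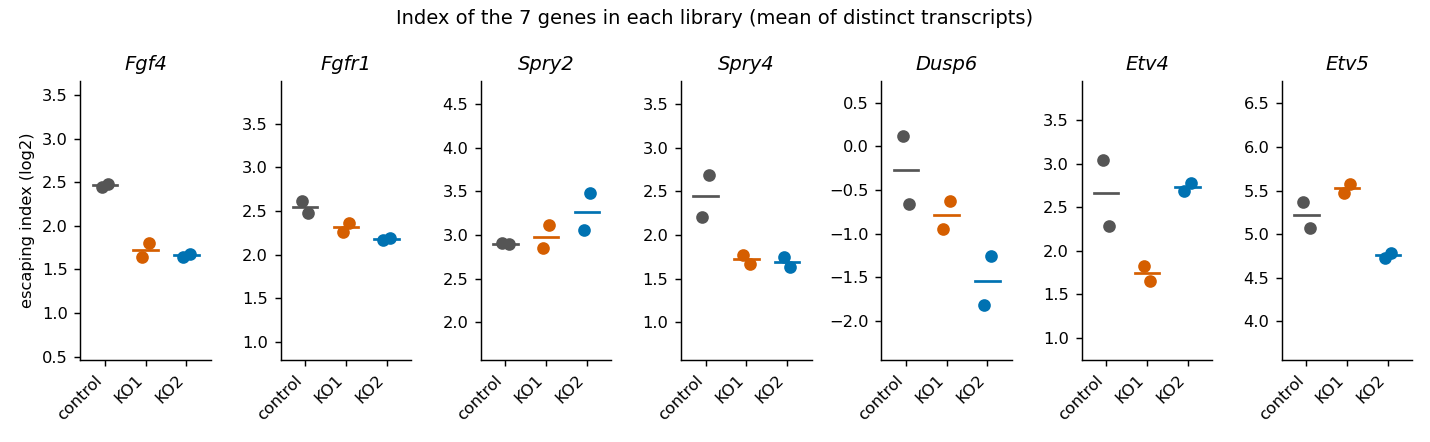
Log2 escaping index of each of the 7 genes (mean of its distinct transcripts) in the 6 libraries; points are libraries, bars are group means, and each panel spans the same range of log2 units around its own centre. Fgf4 and Spry4 sit lower in all 4 knockout libraries than in both controls, Etv4 is low in KO1 alone, and Etv5 is high in KO1 and low in KO2.

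Fgf4 was the gene of the 7 that passed the test over all genes with models averaged: its index fell in KO2 and in the average of both knockouts, and its value in KO1 was nearly the same. Fgf4 (ENSMUSG00000050917, chromosome 7, 144847367 to 144865243, plus strand, mm10) was measured through 1 of its 2 annotated models. Its index was 2.45 and 2.48 in control, 1.64 and 1.80 in KO1, and 1.64 and 1.68 in KO2. The knockouts overlapped each other and neither overlapped control. As a ratio, the group values were 5.52 in control, 3.29 in KO1 and 3.16 in KO2. The change was -0.80 ± 0.14 (SE) in KO2 (limma adjusted p = 0.0414) and -0.78 ± 0.12 in the average of both knockouts (0.0424). In KO1 it was -0.75 ± 0.14, with an adjusted p of 0.0861. No gene of 17349 was called in KO1, so the miss there is not particular to Fgf4. The call was lost with any 1 of the 6 libraries left out, but so was every call over all genes, so this loss is not particular to Fgf4. Its change then ran from -0.82 to -0.78 in KO2 and from -0.82 to -0.74 in the average. With each library centred on its median the change in KO2 was -0.49 (limma adjusted p = 0.171), and no gene of 17349 was called. Without centring, 18.0% of genes had a lower change than Fgf4. Among 732 coding genes of like span, 34.3% had a lower change in KO2, where their median was -0.60, and 24.9% in KO1. Fgf4 overlaps no other annotated gene.

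Among the 7 genes, 1 of 7 was called in KO2, where 7.06% of all genes were called, and 1 of 7 in the average, where 5.98% were. None was called in KO1, where 0% of all genes were; at an unadjusted limma p under 0.05 there were 3 of 7, beside 23.1% of all genes. The median change of the 7 was -0.52 in KO1 and -0.46 in KO2, and -0.43 when both were averaged, beside -0.21, -0.34 and -0.27 over all genes. In KO1, 4 of 7 lay below both controls with no overlap (44% of all genes), and in KO2 5 of 7 did (55.7% of all genes). All 4 knockout libraries lay below both controls in Fgf4, Fgfr1 and Spry4, 3 of 7, beside 34.9% of all genes. These shares are near the background. KO1 and KO2 are set against the same 2 controls, so their changes are given side by side and not as independent evidence.

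Fgfr1 encodes the main FGF receptor of these cells, and its index depended on which model was read. Averaged over 17 distinct models, the gene (ENSMUSG00000031565, chromosome 8, 25513654 to 25575718, plus strand) had a control index of 2.54 ± 0.10 (SD, n = 2), with 2.31 ± 0.074 in KO1 and 2.18 ± 0.017 in KO2. The changes, -0.23 ± 0.14 in KO1 and -0.37 ± 0.14 in KO2 (SE, limma adjusted p = 0.369 and 0.140), were close to the median of all genes. The full-length model Fgfr1-201, in contrast, was at 4.94 and 5.09 in control, 4.08 and 4.24 in KO1, and 3.65 and 3.67 in KO2. The 3 groups did not overlap, with KO2 lowest. As a ratio this was 32.3 in control, 17.9 in KO1 and 12.6 in KO2. Fitted with 1 full-length transcript per gene, Fgfr1 fell by 1.36 ± 0.17 (SE) in KO2 (limma adjusted p = 0.0280) and by 1.11 ± 0.15 in the average (0.0289), while KO1 was at -0.85 ± 0.17 (0.0683). Of all genes so fitted, 18.1% were called in KO2 and 15.7% in the average, and 7.40% had a lower change than Fgfr1 in KO2. Among 1307 coding genes of like span, 10.6% had a lower change in KO2, where their median was -0.66. Fits with 1 full-length transcript per gene, here and below, were not repeated with centred libraries or with a library left out.

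The 4 distinct full-length coding models of Fgfr1 that start within 36 bases of the first measured start (Fgfr1-201, Fgfr1-202, Fgfr1-203 and Fgfr1-214, the last with the same values as Fgfr1-215) all fell in KO2, with changes between -1.36 and -1.25. In KO1 they were between -0.85 and -0.79 and none was called. They share nearly all of their bases and are 1 measurement rather than 4. Further 3 models that start 136 to 1078 bases downstream were between -0.74 and -0.20 in KO2, and the 10 models that start 13366 to 50964 bases downstream, most of them retained-intron or nonsense-mediated-decay models, were between -0.89 and 0.70, with a median of 0.17 and 4 of 10 below control. None of these 13 was called. The control index of the 10 ran from -1.80 to 4.53, against 4.84 to 5.01 in the full-length models. The mean over the gene therefore averages models whose starts are inside the gene with those that begin at the first start. Fgfr1-205, which starts 1078 bases downstream, was apart from its neighbours: it was at 4.32 and 4.19 in control, 4.49 and 5.18 in KO1, and 3.41 and 3.63 in KO2. An antisense gene, Gm16159, lies within Fgfr1 from the opposite strand, and whether strand was used in counting is not stated in the labels.

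**Figure D2:**
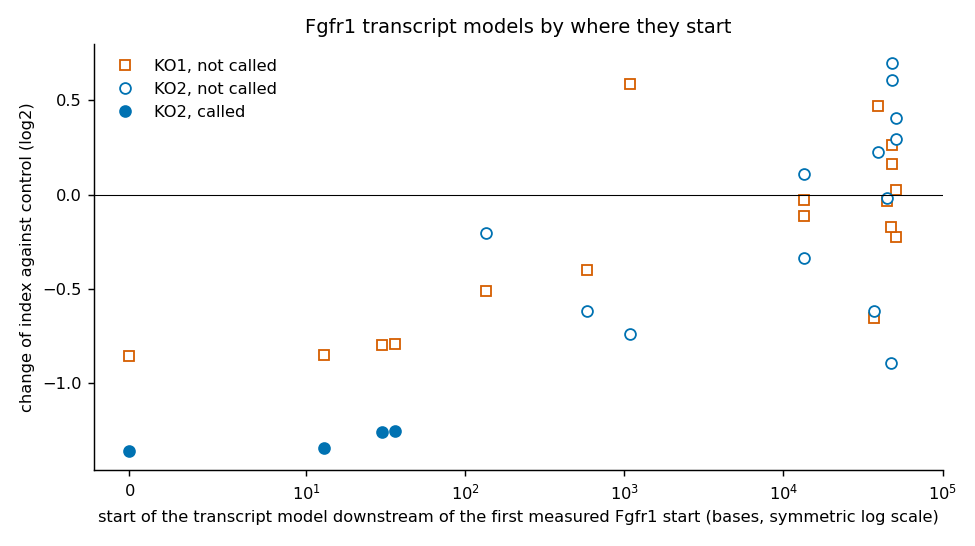
Change of the log2 index against control for the 17 distinct Fgfr1 models, by how far downstream of the first measured start each begins (symmetric log scale, bases); squares are KO1, circles KO2, and filled circles were called. The 4 full-length models within 36 bases lie between -1.36 and -1.25 in KO2, and those that start 13366 bases or more downstream scatter around 0.

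The values of the inhibitor genes went different ways. Spry4, a Sprouty inhibitor of receptor signalling on chromosome 18, was at 2.21 and 2.69 in control, 1.77 and 1.67 in KO1, and 1.75 and 1.64 in KO2. Both knockouts lay below both controls and overlapped each other, as in Fgf4, but the controls were further apart. The changes were -0.73 ± 0.20 in KO1 and -0.76 ± 0.20 in KO2 (SE), with limma adjusted p of 0.133 and 0.0781, and the 95% intervals ran from -1.24 to -0.22 and from -1.27 to -0.25. In the average Spry4 was at -0.75 ± 0.18 (adjusted p = 0.0663). Of 1701 coding genes of like span, 31.8% had a lower change than Spry4 in KO2 and 19.9% in KO1. It has 1 model, and 2 short RNA genes, Gm27369 and Gm27804, lie within it on the opposite strand.

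Spry2, the other Sprouty gene (ENSMUSG00000022114, chromosome 14, 105891947 to 105896819, minus strand), was the one gene of the 7 with a higher mean index in both knockouts, and it was not called. It was at 2.91 and 2.89 in control, 2.85 and 3.11 in KO1, and 3.06 and 3.48 in KO2. KO1 overlapped the controls and KO2 lay above them, which 7.56% of all genes did. The changes were 0.082 ± 0.19 in KO1 and 0.37 ± 0.19 in KO2 (SE, limma adjusted p = 0.831 and 0.250), with 95% intervals from -0.41 to 0.57 and from -0.12 to 0.86. Without KO1 replicate 2 the KO1 change was -0.045, so it has no direction. In KO2, 93.3% of all genes had a lower change than Spry2, and among 879 coding genes of like span 95.3% did. That change was 0.16 without KO2 replicate 2 and 0.58 without KO2 replicate 1.

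Dusp6 encodes the phosphatase that dephosphorylates ERK in the cytoplasm, and it was the one gene of the 7 whose full-length index was below 0, a ratio under 1. The gene (ENSMUSG00000019960, chromosome 10, 99263231 to 99267489, plus strand) has 2 full-length models from the same start, Dusp6-201 and Dusp6-204, whose ends differ by 1 base. Dusp6-204 was at -0.64 and -0.37 in control, -1.07 and -0.48 in KO1, and -1.86 and -1.68 in KO2. KO1 overlapped the controls and KO2 lay below both other groups. The ratio was 0.704 in control, 0.584 in KO1 and 0.293 in KO2. Fitted with 1 full-length transcript per gene, Dusp6 fell by 1.26 ± 0.31 (SE) in KO2 (limma adjusted p = 0.0452), and KO1 was at -0.27 ± 0.31 (0.602). Of all genes so fitted, 18.1% were called in KO2. Among 777 coding genes of like span, 10.4% had a lower change in KO2, where their median was -0.58. Averaged with the remaining model, Dusp6-203, the gene Dusp6 was at -1.27 ± 0.37 in KO2 and was not called (adjusted p = 0.0891). Dusp6-203 starts 2410 bases inside the gene, and its 2 control libraries were at 1.66 and -1.23, so it adds spread. The averaged KO1 change of -0.52 was -0.12 without control replicate 1 and -0.91 without control replicate 2.

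The ETS genes differed from control in different knockouts, and neither passed the test. Etv4 (ENSMUSG00000017724, chromosome 11, 101769742 to 101785371, minus strand) was at 3.04 and 2.29 in control, 1.83 and 1.65 in KO1, and 2.69 and 2.78 in KO2 over its 9 distinct models. KO1 lay below both controls and below KO2, and KO2 lay between the controls. The changes were -0.92 ± 0.27 in KO1 and 0.066 ± 0.27 in KO2 (SE, limma adjusted p = 0.145 and 0.887), with 95% intervals from -1.61 to -0.24 and from -0.62 to 0.75. Without control replicate 1 the KO1 change was -0.55, and without control replicate 2 the KO2 change was -0.31, so the latter has no direction. The full-length model Etv4-201 held less spread in control and KO1 and more in KO2. It was at 4.74 and 4.82 in control, 4.01 and 3.96 in KO1, and 4.65 and 5.16 in KO2. Its changes were -0.79 ± 0.22 in KO1 (limma adjusted p = 0.0999) and 0.13 ± 0.22 in KO2 (0.701).

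Models of Etv4 that begin a short way downstream gave other values. In 5 models that start 61 to 149 bases downstream of Etv4-201, control replicate 1 exceeded control replicate 2 by 1.39 to 1.70, whereas in Etv4-201 the controls lay close together, with replicate 1 below replicate 2. Etv4-212, a full-length coding model that starts 61 bases downstream, was at 4.92 and 3.53 in control. KO1 lay below both controls in Etv4-201 and in these 5 models, with changes between -1.58 and -0.79. In the 3 models that start 510 to 983 bases downstream the KO1 changes ran from -1.17 to 0.66, and none of the 9 was called in either knockout. Etv4-204, which starts 880 bases downstream, was at 0.38 and 1.07 in control and at 1.90 and 1.97 in KO2, the highest KO2 change of the 37 models (1.21, limma adjusted p = 0.0509).

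Etv5 (ENSMUSG00000013089, chromosome 16, 22381309 to 22439719, minus strand) was at 5.37 and 5.07 in control, 5.48 and 5.58 in KO1, and 4.73 and 4.78 in KO2 over 5 distinct models. KO1 lay above and KO2 below both controls, an arrangement that 2.79% of all genes showed. The changes were 0.31 ± 0.16 in KO1 and -0.46 ± 0.16 in KO2 (SE, limma adjusted p = 0.298 and 0.118), and neither was called. Without control replicate 2 the KO1 change was 0.16. With the full-length model Etv5-201 they were 0.52 ± 0.25 and -0.83 ± 0.25 (0.241 and 0.0694), and the ratio was 121.5 in control, 174.3 in KO1 and 68.4 in KO2. Etv5-203, a coding model from a start 3205 bases downstream, showed the same arrangement, at 5.19 and 5.20 in control, 5.66 and 6.08 in KO1, and 4.47 and 4.63 in KO2. The model that starts 37890 bases inside the gene, Etv5-205, lay above both controls in both knockouts. Relative to the median of all genes the average of both knockouts changes sign in Etv5, from -0.075 to 0.19, so the average is not described for it.

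**Figure D3:**
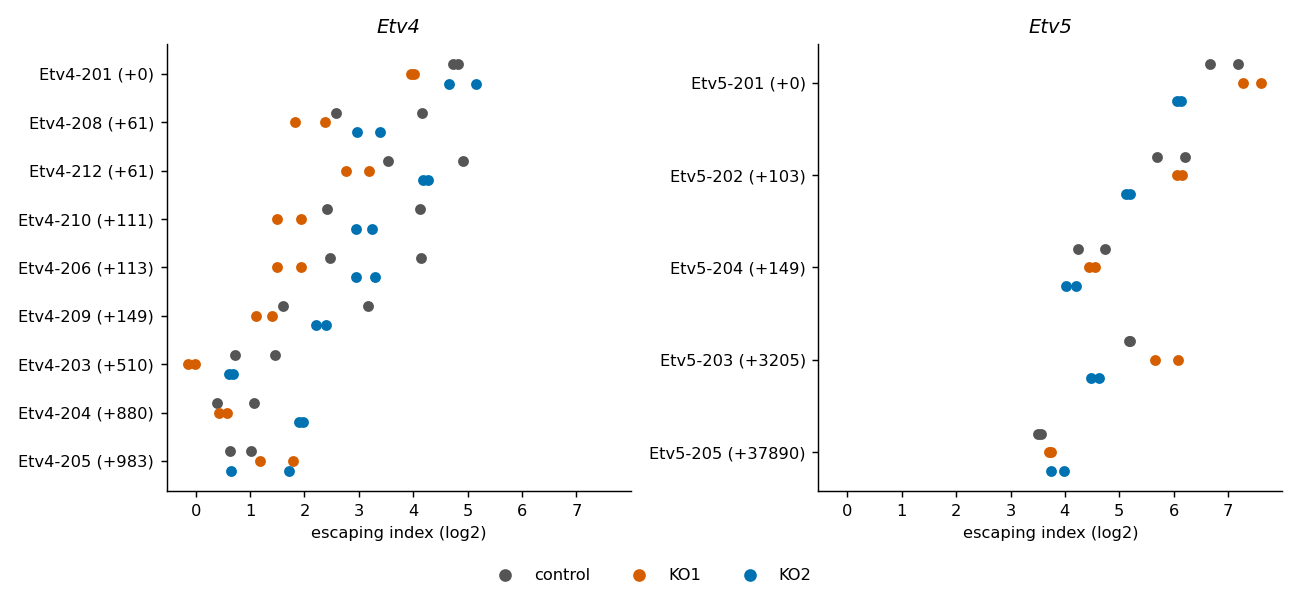
Log2 escaping index in each library for the distinct models of Etv4 (left) and Etv5 (right), ordered by start; the number in brackets is how many bases downstream of the first measured start a model begins, and each point is 1 library. The controls of Etv4 are 1.39 to 1.70 apart in the models that begin 61 to 149 bases downstream, and in Etv5-201 and Etv5-203 KO1 lies above and KO2 below both controls.

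Etv4 and Etv5 were the genes of the 7 with the widest gap between KO1 and KO2 in opposite directions. KO1 minus KO2 was -0.99 ± 0.27 in Etv4 (SE, limma adjusted p = 0.220) and 0.77 ± 0.16 in Etv5 (0.173). Beside the median of 0.12 over all genes, 1.33% of genes had a lower value than Etv4 and 91.5% a lower value than Etv5. With full-length models the values were -0.92 ± 0.22 in Etv4, 1.35 ± 0.25 in Etv5, 0.99 ± 0.31 in Dusp6 and 0.50 ± 0.17 in Fgfr1, with adjusted p from 0.166 to 0.233. Fgf4 was at 0.057 ± 0.14, with a 95% interval from -0.30 to 0.41, and Spry4 at 0.029 ± 0.20, from -0.48 to 0.54. None of the 7 was called, as was 0% of all genes; at an unadjusted limma p under 0.05 there were 2 of 7 (16.1% of all genes), and 4 of 7 with full-length models (18.1% of all genes). The order of the full-length levels also differed between groups: Etv4-201 lay below Fgfr1-201 in control, at 4.78 and 5.01, and above it in KO2, at 4.91 and 3.66.

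Over the 37 distinct models, 7 were called in KO2, all lower, where 9.79% of all distinct transcripts were called and 9.4% were called lower, and 5 in the average, also lower (8.49% and 8.15%). The 7 were Fgf4-201, the 4 full-length Fgfr1 models and both full-length Dusp6 models, so they come from 3 genes. None was called in KO1 or between KO1 and KO2, as was 0% of all distinct transcripts; at an unadjusted limma p under 0.05 there were 12 of 37 in KO1 (24% of all) and 16 of 37 between the knockouts (16.3% of all). The median change of the 37 was -0.26 in KO1 and -0.33 in KO2, beside -0.20 and -0.32 over all distinct transcripts. Since 17 of the 37 belong to Fgfr1 and 9 to Etv4, these counts weigh those 2 genes most.

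Spliced sequence of the full-length models was searched for GGACT, the commonest form of the m6A consensus; m6A itself was not measured. Spry2 held 7 matches in 2087 bases, or 3.35 per 1000, more than 98.6% of 12754 coding genes, whose median was 1.05. Dusp6 held 2.12, Fgfr1 1.59, Etv5 1.51 and Fgf4 1.32 per 1000. Spry4 and Etv4 held the fewest, 0.421 and 0.418 per 1000, more than 15.0% and 14.8% of coding genes. Of the 7 genes, Spry2, with the most, had the highest KO2 change, and Etv4, with the fewest, had the next highest. A relation of motif density to the change was not tested.

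For likeness of pattern, the protein-coding genes with the smallest root-mean-square difference in index over the 6 libraries were Enkd1 (0.054) and Cep85 (0.099) for Fgf4, Rtn4 (0.074) and Gtf3c2 (0.075) for Fgfr1, Disp3 (0.10) and Armcx1 (0.10) for Spry4, and Tgs1 (0.14) and Atxn7l3 (0.14) for Spry2. Those for Etv5 were Ino80d (0.15) and Enox2 (0.15), and for Etv4 Pop4 (0.21) and Rab11fip2 (0.23). Dusp6 had the most distant nearest genes, Nt5c (0.24) and Trip6 (0.31). Enkd1, nearest to Fgf4, was at -0.66 in KO1 and -0.79 in KO2, beside -0.75 and -0.80 for Fgf4.

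Of 113 other pathway genes listed by role, 95 had an index. In KO2 the index was lower in 79 of 95 and higher in 16, where 78.7% of all genes were lower. Of the 95, 10 were called lower (10.5%, beside 6.9% of all genes) and none higher (0.161% of all genes), and 85 did not pass. In the average 4 of 95 were called lower (4.21%, beside 5.79% of all genes). In KO1 none passed, as for all genes, with 24 of 95 at an unadjusted limma p under 0.05 (23.1% of all genes). With models averaged, the list's median change was close to that of all genes. It was -0.26 in KO1 and -0.38 in KO2, and -0.28 in the average of both knockouts. With 1 full-length transcript per gene 29 fell in KO2 (17.7% of all genes did) and 23 in the average (15.2%). None of the 10 passed with each library centred on its median or with any 1 library left out, since no gene of 17349 did.

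Among genes listed as inhibitors, 3 of 14 measured were called lower in KO2 (21.4%, beside 6.9% of all genes) and 11 did not pass. Spry1, also a Sprouty gene, was at 2.37 and 2.29 in control, 1.08 and 1.57 in KO1, and 1.25 and 0.98 in KO2. Its change was -1.21 ± 0.22 (SE) in KO2 (limma adjusted p = 0.0442) and -1.11 ± 0.19 in the average (0.0444). Thus Spry1 fell, Spry4 was lower without passing, and Spry2 was not lower. Dusp5, a nuclear phosphatase of ERK, fell by 1.24 ± 0.16 in KO2 (0.0365) and by 0.86 ± 0.14 in the average (0.0425). Dusp10, a phosphatase of the stress kinases, fell by 1.21 ± 0.16 in KO2 (0.0365), and its average was at -0.73 ± 0.14 (0.0513).

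Of 9 genes listed as ligands that had an index, besides Fgf4, 1 was called lower in KO2 (11.1%, beside 6.9% of all genes) and 8 did not pass. Fgf13, which encodes an intracellular FGF-like protein that is not secreted as a ligand, fell by 1.49 ± 0.19 (SE) in KO2 (limma adjusted p = 0.0365) and by 1.16 ± 0.16 in the average (0.0390), while Fgf10 was at -0.51 ± 0.16 in the average (0.105). The other 12 listed ligand genes had no index. None of 12 receptor and co-receptor genes passed; at an unadjusted limma p under 0.05 in KO2 there were 4, where 32.1% of all genes were. Fgfr4 was at -0.98 ± 0.34 in the average and Fgfrl1, a receptor without a kinase domain, at -0.63 ± 0.22 (0.133 and 0.130). Without control replicate 2 Fgfrl1 was at -0.37 and Fgf10 at -0.33. With 1 full-length transcript 2 of 12 receptor and co-receptor genes were called lower in KO2, where 17.7% of all genes were. They were Fgfr4 (-1.39, limma adjusted p = 0.0298) and, named after its values were seen, the heparan sulphate sulphotransferase gene Hs6st1 (-1.17, 0.0287).

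Among Ras proteins and their regulators, 2 of 11 were called lower in KO2 (18.2%, beside 6.9% of all genes) and 9 did not pass. Rasgrp1, an exchange factor that activates Ras, fell by 1.51 ± 0.20 (SE) in KO2 (limma adjusted p = 0.0365) and by 1.19 ± 0.17 in the average (0.0394), and Rras2, a Ras-related GTPase, fell by 0.99 ± 0.16 in KO2 (0.0394). None of 10 adaptors passed (4 at an unadjusted limma p under 0.05 in KO2, beside 32.1% of all genes). Sos1, the exchange factor recruited by Grb2, was at -0.999 ± 0.22 in the average (0.0598) and Ptpn11, the phosphatase SHP2, at -0.52 ± 0.13 (0.0714). None of 13 genes of the kinase cascade passed (3 at an unadjusted limma p under 0.05 in KO2, beside 32.1% of all genes). The kinase gene Araf was at -0.51 ± 0.11 in the average (0.0579). With 1 full-length transcript per gene, Sos1 (-0.999, 0.0375), Ptpn11 (-0.85, 0.0373) and Araf (-0.65, 0.0458) passed in the average. Map2k1 and Map2k2, the MEK genes whose products the inhibitor in the medium targets, were named after their values were seen. They were at 0.023 and -0.017 in KO1 and at -0.018 and -0.052 in KO2. With 1 full-length transcript Map2k1 fell by 0.66 in the average (limma adjusted p = 0.0393), and Map2k2 was at -0.32 (0.205).

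None of 13 ETS and downstream kinase genes passed (5 at an unadjusted limma p under 0.05 in KO2, beside 32.1% of all genes). Ets2 was at -0.41 ± 0.13 and the ERK-activated kinase gene Rps6ka3 at -0.54 ± 0.14 (SE) in the average (limma adjusted p = 0.105 and 0.0786). Rps6ka3 passed with 1 full-length transcript (-1.10, 0.0289), and without retained-intron and nonsense-mediated-decay models Ets2 was at 0.36. Of 13 other ERK-responsive genes, 4 were called lower in KO2 (30.8%, beside 6.9% of all genes) and 9 did not pass. The 4 were the immediate early genes Jun (-1.02 ± 0.19), Junb (-1.18 ± 0.21) and Ier3 (-0.92 ± 0.16), and the phosphatase gene Dusp14 (-0.97 ± 0.15). Their limma adjusted p ran from 0.0391 to 0.0460. With 1 full-length transcript 5 of 13 were called lower in KO2 (17.7% of all genes were), without Junb (0.0512) and Dusp14 (0.140). Fos (-1.84, 0.0280), Ccnd1 (-0.96, 0.0368) and Plk2 (-0.96, 0.0400), named after their values were seen, passed only so fitted. With models averaged Fos was at 0.29 in KO2. Jun was at 0.72 and 0.89 in control, 1.02 and 0.70 in KO1, and -0.17 and -0.26 in KO2. In KO1 it overlapped the controls, at 0.059 ± 0.19 (0.881). In control the index was 0.80 in Jun, 0.12 in Junb, 0.60 in Ier3 and 4.64 in Dusp14. These levels were not set against genes of like span, so they are not ranked.

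**Figure D4:**
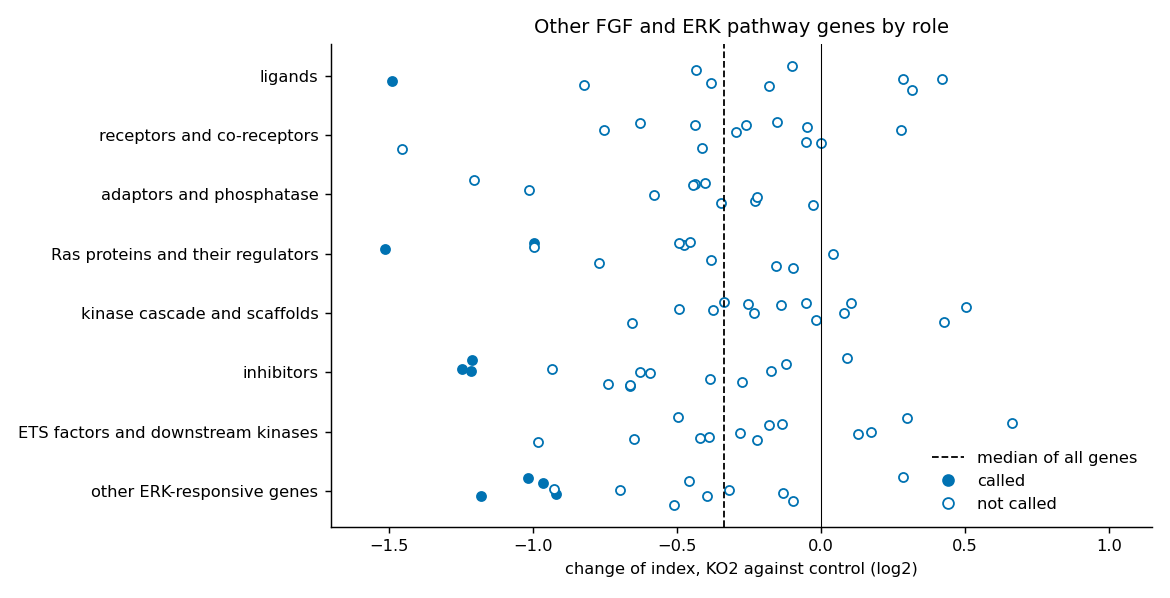
Change of the log2 index in KO2 against control for the 95 other pathway genes with an index, grouped by role; filled points were called, open points were not, the dashed line is the median of all genes and the vertical jitter carries no value. Called genes are among those listed as inhibitors (3), other ERK-responsive genes (4), Ras proteins and their regulators (2) and ligands (1, the intracellular Fgf13).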

How the data were processed

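The authors deposited log2 values, named an escaping index, for 68473 Ensembl transcripts in 6 mNET-seq libraries. Per the submitters' processing notes, CASAVA, Trimmomatic 0.38, HISAT2 2.1.0, featureCounts and build mm10 were used; neither their roles and settings nor the windows of the index are stated there. Identifiers were matched without version to GENCODE M21, and 76 did not match. Where models of 1 gene held identical values, 1 was kept, which left 66944, and these were averaged per gene. Values were tested as deposited, without rescaling, in limma 3.58.1 (R 4.3.3; group means of 3 groups, trended moderated variances, 3 residual degrees of freedom, two-sided), over all genes and over all distinct transcripts, with Benjamini-Hochberg adjustment; an adjusted p under 0.05 was called. The procedure was tested on simulated data. Full-length means the longest GENCODE basic coding model, or the longest model where there was none. The members, lists and tests were chosen with earlier results of these data known. Named were the 7 genes, pathway genes called in a contrast with control or, failing that, the 2 of each role with the smallest p, the 2 nearest genes in pattern, and Mettl3. The values of 1 pathway gene that this rule names are not reported here. Alternatives covered models, scaling, pseudocount, filter, variance trend, samples fitted, replicate number and each library left out.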

Additional observations from a re-analysis of the deposited data

How the results depend on the processing

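The number of the 7 genes called was 1 in KO2 and 1 in the average, and 3 and 2 with 1 full-length transcript per gene. The fit with 1 full-length transcript per gene was not repeated under the other settings. With models averaged, the number called was 0 in both with each library centred on its median, with quantile normalization and with the replicate number as a block. It was 0 in KO2 with only the groups compared. Leaving out 1 library each gave 0 to 0 in both. The 7 transcripts called in KO2 and the 5 in the average likewise became 0 under median centring, quantile normalization and the replicate block, 0 in KO2 with only the groups compared, and 0 to 0 with 1 library left out each. A library less leaves fewer degrees of freedom; otherwise the cause was not tested. Calls over all genes behaved likewise: 1225 in KO2 and 1038 in the average became 3139 and 2728 with 1 full-length transcript per gene and 0 in every setting just named that gave 0, as did 6554 and 5682 over distinct transcripts. Under the pseudocount and the variance without trend the counts of the 7 genes did not move. The filter (mean index of at least 0) gave the same counts, but over 6 genes, since it removed Dusp6. The average uses all groups, so it has no fit with only the groups compared.

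Replicate numbers did not pair the libraries: differences between replicate 1 and 2 correlated across genes at -0.016, -0.0018 and 0.027 between groups. Of 409 recomputed changes of the 7 genes, 12 reversed, all from values that did not pass. Fgf4 in KO1 against KO2 turned to -0.056 with median centring, -0.077 with quantile normalization and -0.023 without KO1 replicate 2 (range with 1 library left out to 0.14), and Spry4 to -0.084, -0.10 and, without KO2 replicate 2 or KO1 replicate 1, -0.025 and -0.020 (to 0.083). Etv5 in the average turned to 0.19, 0.24 and, without control replicate 1, 0.071 (from -0.22). Spry2 in KO1 was -0.045 without KO1 replicate 2 (to 0.21), and Etv4 in KO2 -0.31 without control replicate 2 (to 0.44). Among 414 pathway gene changes, Ets2 alone reversed (0.36 without retained-intron and nonsense-mediated-decay models), 138 calls were lost and 13 gained. Read depth is unknown, so which values rest on few reads cannot be told.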
